A study of Drosophila melanogaster with 16 samples.

Results

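The levels described here are those of control hearts of *Drosophila melanogaster*, measured on 8 of the 16 arrays of a study of ion channel mutants. The 8 arrays were chosen by their labels: 5 of Canton-S, the wild-type stock that served as control for *sei* (*seizure*) mutants, and 3 of the control for *KCNQ* mutants, labelled KCNQ97, a line in which a P element was precisely excised from the *KCNQ* locus of *w1118* flies (the PE control). The 5 *sei* mutant and 3 *KCNQ* mutant arrays were not used, and the strains were not tested against each other. Each array held RNA of 30 pooled hearts from flies kept at 25 °C to an age of 3 weeks. Flies were separated by sex, but the labels do not give the sex of the hearts. Hearts were dissected by hand after attached fat and tracheoles had been drawn off with a glass pipette, so each pool could hold cardiomyocytes, pericardial cells, ventral longitudinal muscle, blood cells and remnants of neighbouring tissue.

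The fly heart is a muscular tube on the dorsal side of the abdomen that beats without nervous input and pumps hemolymph through the open body cavity. Its wall is a single layer of cardiomyocytes with myofibrils and mitochondria, lies in a basement membrane rich in collagen, and is flanked by pericardial nephrocytes that filter the hemolymph. Its beat rests on calcium entry and release, on repolarizing potassium currents, and on gap junctions of the innexin family. The transcription factor network that specifies it, with the homeodomain protein Tinman, GATA, T-box and bHLH factors, is shared with the vertebrate heart.

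A level is the mean over the 8 arrays of the log2 intensity of a probeset, the group of short probes that reports 1 transcript. For a gene with several probesets the brightest was taken. Probesets differ in how strongly they bind their target, so an order of genes is an order of intensity and not of transcript number. No detection call came with the values. The background threshold was therefore set at 2.64 log2 (6.22 as a linear intensity), the 95th percentile of 125 probesets for odorant and gustatory receptors, which sensory neurons express. A gene at or under it was called background, one with a level of at least 10 log2 (1024 linear) was called bright, and the rest were called intermediate. In pooled hearts, fewer cells of a type and less RNA per cell cannot be told apart.

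The arrays were alike in overall brightness, with medians of 10.3 to 11.2 linear units. Pearson's r over the 18769 probesets was 0.956 to 0.982 among Canton-S arrays, 0.974 to 0.988 among PE control arrays and 0.947 to 0.968 between strains. Hybridization controls spiked into every sample (bioB) averaged 12.15 and 12.17 log2 on Canton-S arrays 4 and 5, 8.71 on Canton-S array 3 and 10.07 to 10.25 on the other 5. The difference between the 3′ and 5′ control probesets of *Act5C*, which widens as RNA is degraded or incompletely copied, was 2.10 to 3.16 log2 on Canton-S and 1.81 to 1.92 on PE control arrays. The same difference overlapped between strains for the Gapdh controls (2.97 to 3.14 and 2.73 to 3.08) and for the eIF4A controls (2.07 to 3.04 and 2.06 to 2.31), the latter being widest on Canton-S arrays 4 (2.89) and 5 (3.04). Canton-S array 3 stood apart most often. Among the 738 bright genes it was the lone highest Canton-S array for 49 and the lone lowest for 46, against 0 or 1 for each of the other 4. Among all 11982 genes it was the lone highest for 292 and the lone lowest for 99, while array 4 was so for 176 and 52 and array 5 for 158 and 36. Without it the bright band held 738 genes and the background band 3366. The labels call the arrays biological replicates and say no more of their origin. In the study's supplement, however, the names of Canton-S arrays 2 and 3 share a sample code, so whether these are separate pools is not settled. Pearson's r of array 3 with the other Canton-S arrays, array 2 among them, was at most 0.967. Arrays 1 and 2 reached 0.982 with each other. With arrays 2 and 3 averaged to 1 sample, 732 genes were bright and 3327 at background. Errors and p-values measure only the spread between these arrays.

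Of 11982 genes with a probeset of their own, 738 were bright (6.16%), 7996 were intermediate (66.7%) and 3248 lay at background (27.1%). The distribution had a narrow mode at background and a broad shoulder above it. The steps from 1 to 2 and from 2 to 3 log2 held 1632 and 2280 genes, the step from 4 to 5 held 916, and that from 6 to 7 held 1257. Above 12 log2 there were 73 genes up to 13 and 13 beyond. The median gene stood at 4.99. Although they were 6.16% of the genes, those in the bright band carried 56.4% of the summed linear intensity, and the background band carried 0.432%.

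limma compared each level with the background threshold against the spread over the 8 arrays. By it, 10265 of 18769 probesets (54.7%) and 7951 of 11982 genes (66.4%) lay above the threshold at a Benjamini-Hochberg adjusted p under 0.05. All 738 bright genes and 7213 of the 7996 intermediate genes were among them, so 783 genes called intermediate by level could not be separated from the threshold. Of the background genes, 2474 lay below it by the same test. Bands and limma used the same means and the same threshold, so that all bright genes passed follows largely from their definition. The threshold entered limma as a fixed value, without the error of its own estimate. The band was the same on all 8 arrays, each judged by its own receptor probesets, for 482 bright (65.3%), 5720 intermediate (71.5%) and 2346 background genes (72.2%).

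The thresholds cut a continuous distribution. *Gclc*, a subunit of the enzyme that starts glutathione synthesis, was just inside the bright band at 10.005 ± 0.58 log2 (SD, n = 8), with *CG5174* (10.0035 ± 0.27) and *CG14762* (10.003 ± 0.46). *CG15083* (9.998 ± 0.47), *Herp*, a factor of endoplasmic reticulum quality control (9.99 ± 0.32), and *Mfe2*, a peroxisomal enzyme of fatty acid breakdown (9.99 ± 0.47), fell just outside. At the lower threshold *CG4520*, *CG10041* and *CG43163* were the nearest above and *CG10934*, *lncRNA:CR33218* and *CG4631* the nearest at or below it, all 6 at 2.64 log2.

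**Figure D1:**
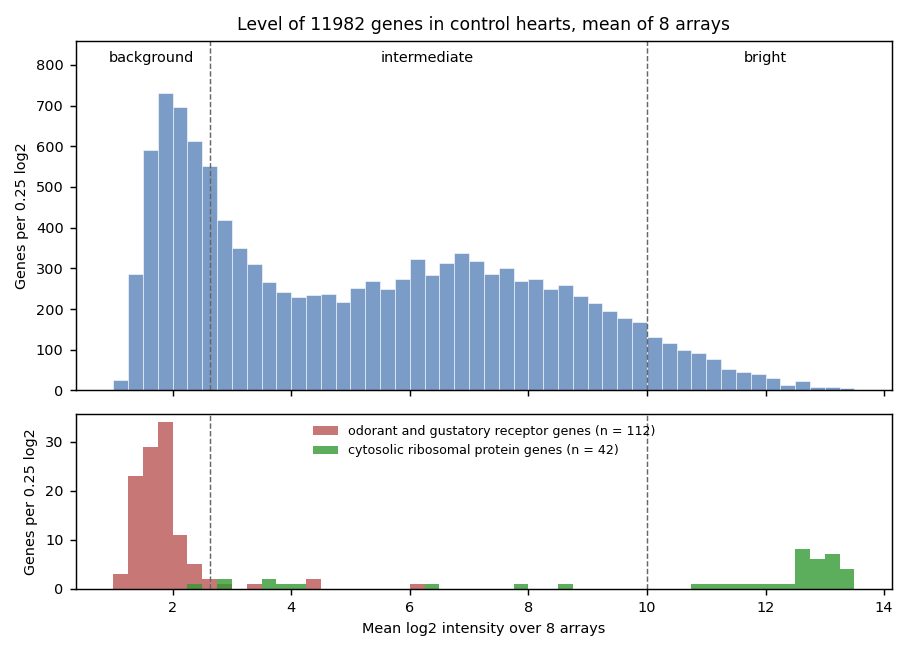
The upper panel counts genes by their mean log2 intensity over the 8 control arrays, in steps of 0.25, with dashed lines at the background (2.64) and bright (10) thresholds. The lower panel shows on the same axis the 112 receptor genes and the 42 cytosolic ribosomal protein genes, 32 of them bright. The background threshold was set from the probesets of the receptor genes, so that 106 of these lie at background follows largely from its definition.

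The brightest genes were those of the cytosolic ribosome, the machine of protein synthesis. They were 20 of the 25 brightest genes, 26 of the 50 brightest and 27 of the 100 brightest. *RpL41* led at 13.40 ± 0.17 log2, with 13.47, 13.42, 13.03, 13.57 and 13.56 on the Canton-S arrays and 13.47, 13.36 and 13.34 on the PE control arrays. Canton-S array 3 was the lowest, the ranges of the strains overlapped, and *RpL41* was the highest ribosomal gene on 7 of 8 arrays. *RpS21* (13.31 ± 0.09), *RpS18* (13.26 ± 0.18), *RpLP2* (13.26 ± 0.10) and *RpL15* (13.19 ± 0.05) followed. Then came *RpL40*, *RpS28b*, *RpS29*, *RpS26*, *RpL36A*, *RpL23*, *RpL17*, *RpL37-1*, *RpL32*, *RpS15*, *RpS27A*, *RpLP1*, *RpL37A*, *RpS20* and *RpL28*, from 13.12 down to 12.70. Of 42 ribosomal genes measured, 32 were bright, 9 intermediate and 1 at background. The dim end held paralogs: *RpL22-like*, which is known from the testis, was lowest at 2.33 ± 0.41. Above it came *RpS28-like* (2.78 ± 0.47) and *RpL10Aa* (2.88 ± 0.41).

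Of the 25 brightest genes, 5 encoded no ribosomal protein. *Cyp4g1*, the cytochrome P450 with which oenocytes make cuticular hydrocarbons, was second at 13.32 ± 0.09. It read 13.40, 13.47, 13.20, 13.29 and 13.21 in Canton-S and 13.31, 13.38 and 13.34 in the PE control. The farthest array was 0.14 log2 from the mean, and the strain ranges overlapped. *Fer2LCH* and *Fer1HCH*, the light and heavy chains of the iron store ferritin, stood at 13.04 ± 0.05 and 12.78 ± 0.16. *Yp1*, a yolk protein made by the fat body and ovary of females, was at 12.80 ± 0.25. *Lsd-2*, the perilipin that coats lipid droplets, was at 12.72 ± 0.29, with 12.15 on Canton-S array 3 and 12.40 to 12.96 on the other 7.

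**Figure D2:**
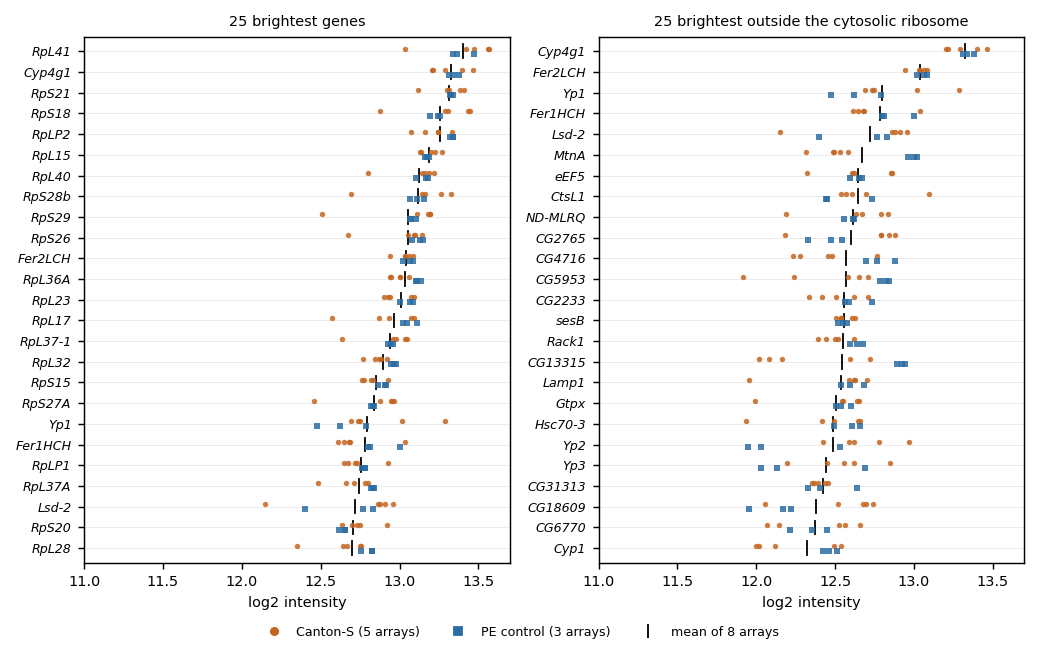
Log2 intensity on each array of the 25 brightest genes (left) and of the 25 brightest genes outside the cytosolic ribosome (right), with circles for Canton-S arrays, squares for PE control arrays and a bar at the mean of 8. Both panels start at 11 log2; most genes vary by less than 1 log2, and the lone low circle in many rows of the left panel is Canton-S array 3.

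Genes of the contractile apparatus were spread over the whole range above background. Of 9 thick filament and titin-like genes measured, 2 were bright, 7 intermediate and none at background. *Mf* (myofilin), a core protein of the thick filament, was the brightest on all 8 arrays at 12.20 ± 0.26 log2. It read 12.51, 12.53, 12.02, 12.46 and 12.20 on the Canton-S arrays and 12.10, 11.92 and 11.89 on the PE control arrays, so the strain ranges overlapped only narrowly. *Mlc1*, the alkali light chain of myosin, read 11.75, 11.72, 11.68, 11.36 and 11.10 in Canton-S and 11.09, 10.81 and 11.03 in the PE control, a mean of 11.32 ± 0.36. All 3 PE control arrays lay below all 5 Canton-S arrays, by 0.01 log2 at the nearest. The regulatory light chain *Mlc2* (9.82 ± 0.30) and the paramyosin gene *Prm* (9.50 ± 0.29) were close under the bright threshold.

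Among the giant proteins that span the sarcomere, *bt* (projectin) stood at 8.22 ± 0.70, *Obsc* (the obscurin gene *Unc-89*) at 6.34 ± 0.58, *Strn-Mlck* at 6.05 ± 0.68 and *sls* (the titin homolog Sallimus) at 5.48 ± 0.97. The last 3 have several probesets, and the dimmest read 1.86, 2.50 and 3.18. *fln* (flightin), a thick filament protein of indirect flight muscle, was the lowest at 3.44 ± 1.22. It read 3.65, 4.14, 3.87, 2.93 and 1.77 in Canton-S and 2.70, 2.64 and 5.79 in the PE control. The highest and lowest arrays differed by 4.02 log2, and *fln* was the only member that limma did not place above the threshold (adjusted p = 0.0643). The muscle myosin heavy chain gene *Mhc* is not named here by a probeset of its own.

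Thin filament genes showed 2 bright and 7 intermediate members of 9. *TpnC73F*, a troponin C, led at 10.78 ± 0.30, followed by *Tm2* (tropomyosin, 10.15 ± 0.39) and *up* (troponin T, 9.90 ± 0.41). For *up*, Canton-S array 3 read 10.57 and the other 4 Canton-S arrays 9.42 to 9.71. The muscle actin *Act87E* stood at 8.93 ± 0.32 and the pointed-end capping protein gene *tmod* at 8.12 ± 1.05. A gap of 3.36 log2 separated these 5 from the remaining 4, *TpnC41C* (4.76 ± 1.27), *TpnC4* (4.61 ± 1.66), *Act79B* (4.37 ± 0.66) and *Act88F* (4.08 ± 0.73). The gap rests on the brightest probeset of each gene: the dimmer probesets of *TpnC73F* and *tmod* read 4.34 and 3.56. *TpnC4* and *Act88F* are the troponin C and actin of indirect flight muscle. *TpnC4* read 4.64, 3.87, 4.50, 3.03 and 2.77 in Canton-S but 4.70, 5.25 and 8.12 in the PE control. PE control array 3, which gave 8.12, was also the highest array for *fln*. *Act88F*, however, read 3.77 on that array, and its highest value was 5.48 on Canton-S array 3. limma placed all 9 genes above the background threshold, beside 66.4% of all genes.

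At the Z-disc, where thin filaments are anchored, 4 of 14 genes were bright, 9 intermediate and 1 at background. The bright members were the PDZ and LIM domain genes *Zasp52* (10.83 ± 0.21) and *Zasp66* (10.06 ± 0.62), the adaptor *CAP* (10.34 ± 0.38) and the muscle LIM gene *Mlp60A* (10.26 ± 0.35). *Mlp60A* has 3 probesets, and the dimmest read 1.76, under the background threshold. *Zasp66* was bright through Canton-S array 3, which read 11.56 where the other 7 arrays read 9.62 to 10.07. *Zasp67*, a related gene, was at background (2.46 ± 0.32). Of the integrin adhesion genes, which tie myofibrils to the matrix, 1 of 12 was bright and 11 were intermediate. *mys*, the integrin beta subunit of muscle, led at 10.02 ± 0.51, then *parvin* (9.93 ± 0.22) and *stck* (PINCH, 9.76 ± 0.37), and the kindlin gene *Fit2* was dimmest at 4.65 ± 0.44.

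Basement membrane genes included 2 bright, 8 intermediate and 1 background gene of 11. *SPARC*, a collagen-binding glycoprotein, stood at 10.85 ± 0.39 and *Col4a1*, a collagen IV chain, at 10.49 ± 0.70. *Col4a1* read 10.51, 10.37, 11.70, 10.996 and 10.90 in Canton-S and 10.0007, 9.92 and 9.49 in the PE control, with every Canton-S array above every PE control array. The other collagen IV chain *vkg* (9.52 ± 0.52), the laminin chains *LanB2* (8.77 ± 0.67), *LanA* (8.60 ± 1.22) and *LanB1* (7.12 ± 0.70), *Mp* (multiplexin, 8.02 ± 0.49), *trol* (perlecan, 6.403 ± 0.84) and *Ndg* (nidogen, 6.20 ± 0.63) were intermediate.

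The widest spread in this list belonged to *wb*, the second laminin alpha chain, at 5.67 ± 2.72. It read 4.46, 3.79, 3.65, 3.74 and 2.96 in Canton-S and 9.05, 8.67 and 9.02 in the PE control. The strain ranges were 4.20 log2 apart at the nearest, so the mean of 8 describes neither strain. *prc*, which encodes pericardin, the collagen-like matrix protein of the heart, had a single probeset that lay at background on all 8 arrays (1.66 ± 0.13, from 1.46 to 1.82). Whether that probeset reports the transcript was not tested.

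Of 18 cardiac transcription factor genes, 1 was bright, 13 were intermediate and 4 lay at background. *Hand*, a bHLH factor of cardioblasts, pericardial cells and the lymph gland, was far the brightest of them on all 8 arrays at 12.20 ± 0.16. It read 12.29, 12.43, 12.05, 12.11 and 12.02 in Canton-S and 12.17, 12.14 and 12.41 in the PE control, and the strain ranges overlapped. The next member, *zfh1*, a zinc finger factor of pericardial cells and muscle precursors, was 3.21 log2 lower at 8.99 ± 0.82. *svp* (seven-up), the nuclear receptor that marks the ostia, stood at 8.82 ± 0.66, with 2 other probesets of which the dimmest read 1.78.

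The GATA factors *srp* (7.41 ± 0.37) and *pnr* (6.87 ± 0.47) and the GATA cofactor *ush* (7.41 ± 0.58) were intermediate. So were the pericardial factor *odd* (6.48 ± 0.69), the Islet homolog *tup* (6.38 ± 0.64) and the Hox gene *Antp* (6.23 ± 0.39). Of the T-box genes, *H15* (6.21 ± 0.56), *mid* (4.88 ± 0.62) and *Doc3* (4.56 ± 0.48) were intermediate, while *Doc1* (2.53 ± 0.32) and *Doc2* (2.33 ± 0.36) lay at background. The homeobox gene *bap* stood at 5.13 ± 0.38. *eve*, which marks a subset of embryonic pericardial cells, was at 2.76 ± 0.36 and not separable from the threshold (limma, adjusted p = 0.378). The ladybird genes *lbl* (2.31 ± 0.45) and *lbe* (1.85 ± 0.17), which act in embryonic heart patterning, were at background. limma placed 13 of the 18 genes (72.2%) above the threshold, close to the 66.4% of all genes, and 2 below it. *tin* and *Mef2* are not named here.

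All potassium channel genes were intermediate or at background: 16 and 3 of 19, with a median of 4.10 log2. limma placed 14 above the threshold, beside 66.4% of all genes. *Shal*, the Kv4 channel of the fast transient current, was the highest at 6.92 ± 0.67 and led on 6 of 8 arrays. It read 7.48, 8.15, 7.37, 6.54 and 6.64 in Canton-S and 6.50, 6.17 and 6.52 in the PE control, so all Canton-S arrays were above all PE control arrays, by 0.03 log2 at the nearest. *SK*, the small-conductance calcium-activated channel, averaged 5.94 but with an SD of 1.27, from 4.50 on PE control array 3 to 7.86 on Canton-S array 4.

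*sei*, the hERG-type channel mutated in the study, was close behind and steadier, at 5.76 ± 0.27. Its arrays read 5.31, 5.84, 5.94, 6.03 and 5.75 in Canton-S and 5.66, 5.45 and 6.08 in the PE control. The strains overlapped, and *sei* exceeded 56.5% of all genes in level. Its relatives of the same family were lower: *eag* stood at 3.63 ± 0.18 and *Elk* at background, 2.06 ± 0.43. *Elk* read 3.10 on Canton-S array 5 and 1.78 to 2.05 on the other 7. *KCNQ*, the other channel of the study, is not named here by a probeset of its own.

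Among the other voltage-gated channels, *Sh* (Kv1) stood at 4.49 ± 0.78, *Shaw* (Kv3) at 4.11 ± 0.65 and *Shab* (Kv2) at 2.81 ± 0.26, the last not separable from the threshold (limma, adjusted p = 0.141). *Sh* has 7 probesets, and the dimmest read 1.77. The large-conductance calcium-activated channel *slo* was at 3.40 ± 0.56 and its sodium-activated relative *SLO2* at 3.77 ± 0.35. Of the 2-pore leak channels, *galene* (5.71 ± 0.44), *sand* (5.15 ± 0.62) and *Ork1* (4.10 ± 0.70) were intermediate, and *Task6* (2.09 ± 0.26) and *Task7* (2.01 ± 0.38) at background.

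The inward rectifiers *Irk1* (4.73 ± 0.55), *Irk2* (3.61 ± 0.28) and *Irk3* (2.92 ± 0.86) and the sulfonylurea receptor gene *Sur* (4.52 ± 0.37) completed the list. *Irk3* read 2.08 to 2.77 on the Canton-S arrays and 4.50, 3.92 and 3.00 on the PE control arrays. Its strain ranges did not overlap, and over all 8 arrays it was not separable from the threshold (limma, adjusted p = 0.331). Neighbouring potassium channels in the order of level differed by more than the larger of their SDs in only 1 of 18 pairs, *Shab* and *Task6*, so the order of neighbours is mostly not resolved, whereas genes far apart in the list, such as *sei* and *eag*, had ranges that did not overlap.

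Channels that carry inward current had no bright member, with 11 intermediate and 4 background genes of 15. Of all genes, 6.16% were bright and 27.1% at background. limma placed 66.7% of the list above the threshold, close to the 66.4% of all genes. *Ih*, the hyperpolarization-activated cation channel of the HCN family, which paces the vertebrate heart, was the highest on all 8 arrays at 8.96 ± 0.39. It read 9.15, 8.64, 8.50, 9.50 and 9.35 in Canton-S and 9.21, 8.67 and 8.63 in the PE control. The strains overlapped, and the next gene, the cation channel *Trpm* (5.53 ± 0.75), was 3.42 log2 lower. The calcium channel subunits *Ca-alpha1D* (L-type, 5.04 ± 0.89), *Ca-alpha1T* (T-type, 4.72 ± 0.59), *cac* (N-type, 4.51 ± 1.53) and *Ca-beta* (4.12 ± 1.08) were intermediate.

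*Ca-alpha1D*, through which calcium enters the fly cardiomyocyte, read 6.13, 5.03, 5.74, 5.00 and 3.63 in Canton-S and 6.00, 4.62 and 4.19 in the PE control. *cac* ranged most, from 1.90 on PE control array 3 to 6.25 on PE control array 1. The sodium channel genes *NaCP60E* (4.89 ± 0.73) and *para* (4.23 ± 0.25) and the TRP channels *pain* (5.20 ± 0.80) and *trp* (4.24 ± 0.46) were intermediate too. *tipE*, an auxiliary subunit of the sodium channel, was at 2.71 ± 0.64, not separable from the threshold (limma, adjusted p = 0.738). The alpha2-delta calcium channel subunits *stj* (2.47 ± 0.81) and *stol* (2.05 ± 0.23), the mechanosensory channel *nompC* (2.23 ± 0.26) and the phototransduction channel *trpl* (1.79 ± 0.57) lay at background.

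Genes that store, pump and sense calcium were higher, with 2 bright and 11 intermediate of 13. *CanB2*, a regulatory subunit of the phosphatase calcineurin, was at 10.20 ± 0.34 and *SERCA*, the pump of the sarcoplasmic reticulum, at 10.03 ± 0.44. *SERCA* read 10.31, 10.23, 10.32, 10.41 and 10.20 in Canton-S and 9.98, 9.74 and 9.08 in the PE control. It was thus bright on all Canton-S arrays and on no PE control array. The store-operated entry pair *Orai* (9.88 ± 0.48) and *Stim* (9.29 ± 0.30) and the plasma membrane pump *PMCA* (9.62 ± 0.43) were high in the intermediate band.

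The release channels were lower: *RyR*, the ryanodine receptor of the sarcoplasmic reticulum, stood at 6.43 ± 0.53 and *Itpr*, the inositol trisphosphate receptor, at 4.52 ± 0.65. *RyR* read 6.51 to 6.98 in Canton-S and 6.00, 6.00 and 5.50 in the PE control, with no overlap. The sodium-calcium exchanger *Calx* was at 4.26 ± 0.44 and the junctophilin gene *jp* at 6.53 ± 0.77. Calcineurin's catalytic subunits *Pp2B-14D* (7.34 ± 0.27), *CanA-14F* (6.26 ± 0.63) and *CanA1* (4.22 ± 0.68) were intermediate. Its other regulatory subunit *CanB*, at 3.23 ± 0.97, was not separable from the threshold (limma, adjusted p = 0.0852). Of the beta subunits of the sodium pump, *nrv1* was bright (10.66 ± 0.37), and *nrv3* (9.03 ± 0.68) and *nrv2* (8.002 ± 0.41) were intermediate.

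The innexins, which form the gap junctions of invertebrates, split into 4 intermediate and 3 background genes. *Inx3* (9.16 ± 0.35), *Inx2* (8.95 ± 0.57) and *ogre* (7.31 ± 0.95) stood well above the threshold. *ogre* read 7.50, 7.10, 7.23, 5.66 and 6.35 in Canton-S and 8.47, 8.10 and 8.09 in the PE control, without overlap, and the same held for *Inx2*. *zpg*, the innexin of germ cells, was at 3.91 ± 1.20, with its highest values on Canton-S arrays 3 (6.03) and 5 (5.18). *Inx6* (2.07 ± 0.28), *Inx7* (1.96 ± 0.95) and *Inx5* (1.84 ± 0.36) lay at background.

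**Figure D3:**
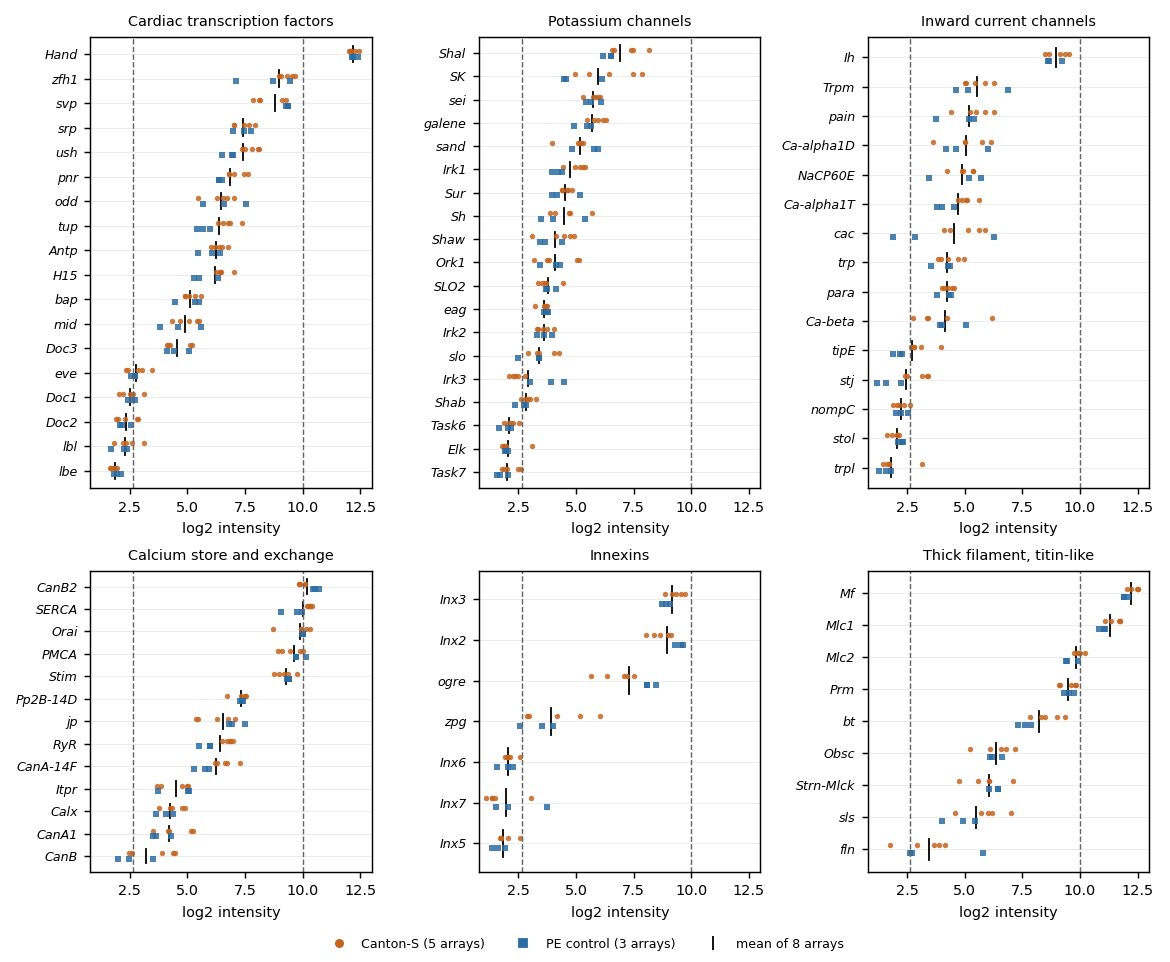
Log2 intensity on each array for every measured member of 6 gene lists, with circles for Canton-S, squares for PE control arrays, a bar at the mean of 8 and dashed lines at the background (2.64) and bright (10) thresholds. *Hand* (12.20) and *Ih* (8.96) stand apart from the rest of their lists, whereas neighbouring potassium channels between 6.92 and 2.81 differ by no more than the larger of their SDs.

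Genes of mitochondrial energy conversion were bright as groups. Of 13 ATP synthase genes, 11 were bright, and of 47 genes in the list of the respiratory complexes, 30, against 6.16% of all genes. That list also holds the ADP/ATP carrier gene *sesB*, which is not a subunit of a complex. The ATP synthase list was headed by *ATPsynD* (11.76 ± 0.21), *ATPsynC* (11.75 ± 0.22) and *blw* (the alpha subunit, 11.62 ± 0.28). Its dimmest member *ATPsynepsilonL*, a paralog of the epsilon subunit, was at 2.92 ± 0.41. In the respiratory list, *ND-MLRQ* (12.61 ± 0.20) and *ND-ASHI* (12.18 ± 0.25), both named as complex I subunits, and *sesB* (12.56 ± 0.04) led.

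*sesB* read 12.63, 12.51, 12.61, 12.54 and 12.54 in Canton-S and 12.52, 12.55 and 12.57 in the PE control, a range of 0.12 log2. The dimmest respiratory gene, *ND-B8*, was at 3.16 ± 0.53. In the tricarboxylic acid cycle list 6 of 11 measured genes were bright, and *Fum2* was lowest (2.76 ± 0.12). The list was led by the NADP-dependent *Idh* (12.07 ± 0.10), the cytosolic *Mdh1* (11.86 ± 0.27) and *Ogdh* (11.75 ± 0.32). Neither *Idh* nor *Mdh1* encodes the form that the cycle itself uses. The subunit genes *Idh3a* (9.69 ± 0.38), *Idh3g* (8.09 ± 0.51) and *Idh3b* (7.54 ± 1.39) were intermediate, and *kdn*, *SdhA*, *Fum1* and *Mdh2* are not named here. *Mdh1* was highest (12.41) and *Ogdh* lowest (11.02) on Canton-S array 3.

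Fuel pathways were mostly bright to intermediate, as were genes in general (6.16% bright, 66.7% intermediate and 27.1% at background). Of 18 glycolytic genes, 6 were bright, among them *Eno* (enolase, 11.31 ± 0.22), *Ald1* (aldolase, 11.11 ± 0.29) and *Tpi* (triosephosphate isomerase, 10.97 ± 0.17). The 3 glycolytic genes at background were paralogs, with the testis hexokinase *Hex-t1* lowest (1.93 ± 0.38). All 14 genes of fatty acid beta oxidation lay above the threshold by limma, beside 66.4% of all genes. Of these 14, 3 were bright: *yip2* (a thiolase, 11.14 ± 0.10), *wal* (an electron transfer flavoprotein, 10.64 ± 0.29) and *Acsl* (acyl-CoA synthetase, 10.53 ± 0.45). The dimmest was *Acox57D-d* (7.49 ± 0.60).

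The lipid droplet and lipoprotein list was bright in 10 of 13 genes. It was led by *Lsd-2*, *apolpp* (the lipophorin of hemolymph, 12.14 ± 0.34) and *Desat1* (a desaturase, 12.13 ± 0.29), and its dimmest member was *Mtp* (8.79 ± 0.54), which loads lipid onto lipophorin. These are genes that the fat body expresses strongly, and the fat body markers on the same arrays are given below.

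**Figure D4:**
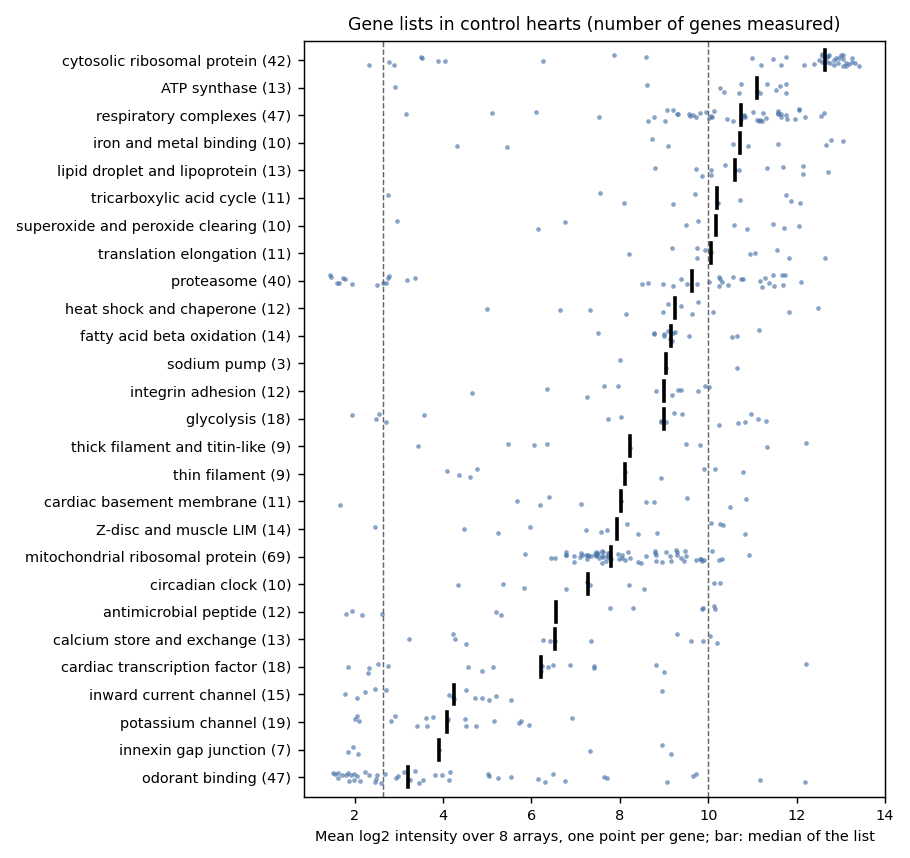
Each point is a gene's mean log2 intensity over the 8 arrays, by gene list and ordered by the list's median (bar), with the number of genes measured in brackets and dashed lines at 2.64 and 10. Medians fall from 12.64 for the cytosolic ribosome to 3.20 for the odorant binding proteins, and the ATP synthase, respiratory and tricarboxylic acid cycle lists lie to the right of the thick filament, thin filament and Z-disc lists, which lie to the right of the channel lists.

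Genes of protein synthesis and turnover were mostly bright or intermediate, as were genes in general (6.16% bright, 66.7% intermediate and 27.1% at background). Of 69 mitochondrial ribosomal genes, 4 were bright and 65 intermediate, from *mRpS7* (10.93 ± 0.25), *mRpL49* (10.32 ± 0.19) and *mRpS5* (10.23 ± 0.24) down to *mRpS18C* (5.85 ± 0.75). The proteasome had 19 bright, 13 intermediate and 8 background genes of 40. *Prosalpha2* (12.10 ± 0.22), *Prosbeta7* (11.73 ± 0.36) and *Prosbeta6* (11.69 ± 0.18) led, and *Prosalpha3T*, a testis paralog, was lowest (1.45 ± 0.37). Of the elongation and initiation factors, 6 of 11 were bright, headed by *eEF5* (12.65 ± 0.17), *eIF4A* (11.83 ± 0.06) and *pAbp* (11.56 ± 0.54), and *eEF1alpha2* was lowest (8.20 ± 0.91).

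Of 12 chaperone genes, 3 were bright: *Hsc70-3*, the BiP chaperone of the endoplasmic reticulum (12.49 ± 0.24), the constitutive *Hsc70-4* (11.83 ± 0.11) and the small heat shock gene *l(2)efl* (10.12 ± 0.49). *l(2)efl* has 3 probesets, and the dimmest read 1.48, under the background threshold. *Hsc70-2* was dimmest (5.00 ± 0.62). The inducible *Hsp27* read 8.86 and 9.46 on Canton-S arrays 4 and 5 and 6.39 to 7.12 on the other 6, which is also where the spiked controls were brightest. Any part of array handling in that difference was not tested.

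Genes that clear peroxides and superoxide were bright in 5 of 10 cases, led by the glutathione transferase *GstD1* (12.04 ± 0.19), catalase (*Cat*, 11.71 ± 0.17) and *Prx3* (11.45 ± 0.21), with *Trxr2* lowest (2.96 ± 0.30). Of 10 metal-binding genes 6 were bright. After the ferritins came the metallothionein *MtnA* at 12.67 ± 0.28, with 12.31 to 12.58 in Canton-S and 12.96, 13.002 and 13.02 in the PE control. Its relative *MtnC* was at 4.32 ± 0.84.

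Antimicrobial peptide genes, which the immune response induces, varied widely between pools. Of 12 measured, 2 were bright, 6 intermediate and 4 at background. *DptB* (diptericin B) read 8.91, 10.62, 11.24, 9.87 and 8.97 in Canton-S and 10.47, 11.58 and 9.62 in the PE control, a mean of 10.16 ± 0.99. *Mtk* (metchnikowin, 10.13 ± 1.08) and *Drs* (drosomycin, 9.88 ± 0.83) followed, and *Drsl3* was lowest (1.80 ± 0.31). The median SD of the list was 0.91 log2, against 0.44 over all genes.

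Circadian clock genes were bright or intermediate in all 10 cases, with *tim* (10.27 ± 0.50) and *vri* (10.12 ± 0.65) bright, *cwo* next (8.55 ± 0.54) and *jet* lowest (4.35 ± 0.49). The labels do not give the hour of dissection. Odorant binding proteins, carriers of small molecules in sensory and other tissues, had 2 bright, 26 intermediate and 19 background genes of 47. *Obp99c* (12.18 ± 0.19) and *Obp18a* (11.16 ± 0.77) were bright, *Obp99a* followed (9.71 ± 0.81), and *Obp50a* was lowest (1.51 ± 0.19).

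Markers of other cell types were measured beside the heart genes, and their part in the levels above was not tested. Of 8 fat body markers, 5 were bright and 2 at background. *Yp1* read 12.74, 12.75, 12.69, 13.02 and 13.29 in Canton-S and 12.47, 12.62 and 12.79 in the PE control. *Yp2* (12.49 ± 0.35) and *Yp3* (12.44 ± 0.29) were close to it. *Fbp2* (2.54 ± 0.44) and *Fbp1* (2.45 ± 0.34), which the larval fat body expresses, lay at background. *Lsp2* was the intermediate member (8.87 ± 1.83), with 8.45 to 11.55 in Canton-S and 6.58 to 7.43 in the PE control. The median of the list was 11.56 to 12.66 log2 on every array. Of its bright genes, *Yp1*, *Yp2*, *Yp3* and *fit* also stand in the list of genes tied to sex.

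Blood cell and nephrocyte markers were all above background. Of 11 hemocyte genes, 2 were bright, the scavenger receptors *Sr-CI* (10.88 ± 0.54) and *crq* (10.58 ± 0.46), then *Hml* (hemolectin, 9.97 ± 0.82), and *NimC2* was lowest (5.35 ± 1.36). *NimC1*, a phagocytosis receptor of the same cells, read 6.20 to 7.58 in Canton-S and 10.38 to 10.48 in the PE control. Of 6 genes of pericardial cells and nephrocytes, 3 were bright: the endocytic receptor genes *Amnionless* (12.0035 ± 0.30) and *Cubn* (10.31 ± 0.58), and *pyd* (10.42 ± 0.70), a scaffold of the slit diaphragm. *Klf15*, a regulator of the nephrocyte, was dimmest at 6.80 ± 1.58, with 4.58 and 4.35 on Canton-S arrays 4 and 5 and 6.48 to 8.80 on the other 6.

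Markers of tracheae, nerve, eye, cuticle, gut and excretory tubules included no bright gene. limma placed 75% of the tubule genes and 68.8% of the neuronal genes above the threshold, beside 66.4% of all genes. The share was 58.3% for midgut enzymes, 50% for tracheal, 32.5% for cuticle and 14.3% for photoreceptor genes. None of 6 tracheal genes was bright, with *pio* (5.39 ± 0.79), *serp* (5.24 ± 0.78) and *Gasp* (4.85 ± 0.76) the highest and *btl* at background (2.51 ± 0.57). Of 16 neuronal genes, 11 were intermediate and 5 at background. *nrv3*, *Ddc* (6.996 ± 0.57) and the pan-neuronal *elav* (5.96 ± 0.51) led, and *ple*, which makes the precursor of dopamine, was lowest (1.34 ± 0.16). All 10 salivary gland and larval genes were at background, the highest being *Sgs3* at 2.49, *ng2* at 2.45 and *Eig71Ee* at 2.44 and the lowest *Eig71Ea* at 1.65.

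Of 80 cuticle genes, 49 were at background. *Cpr49Ae* (7.09 ± 1.15), *Cpr49Ac* (6.96 ± 2.65) and *Cpr78E* (6.74 ± 0.46) were highest and *Lcp65Ag3* lowest (1.26 ± 0.37). *Cpr49Ac* read 3.34 and 2.38 on Canton-S arrays 3 and 5 and 6.99 to 9.52 on the others. Of 24 digestive enzyme genes of the midgut, none was bright and 6 were at background, with *Jon65Aiii* (7.93 ± 1.00), *alphaTry* (7.84 ± 0.92) and *betaTry* (6.90 ± 0.90) highest and *zetaTry* lowest (2.10 ± 0.49). All 8 Malpighian tubule genes were intermediate, with the water channels *Prip* (9.44 ± 0.38) and *Drip* (6.86 ± 1.17) and the cotransporter *NKCC* (6.95 ± 0.50) highest.

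Some markers were high in single pools. The arrestins of the eye, *Arr1* and *Arr2*, read 7.10 and 8.69 on Canton-S array 1, whereas *Arr1* was 1.39 to 2.28 and *Arr2* 2.47 to 3.32 on the other 7. The median of the 7 photoreceptor genes was 4.81 there and 1.61 to 1.95 elsewhere. Seminal fluid genes of the male accessory gland had a median of 6.97 and 7.12 on PE control arrays 1 and 2 and 2.57 to 3.40 on the other 6. *Acp36DE* read 8.52 and 8.59 on those arrays and 2.07 to 4.09 on the rest, and *Acp53Ea* (5.38 ± 2.20) and *Acp63F* (4.58 ± 1.75) had wide spreads too. *Acp95EF* alone of the 11 was bright, at 10.18 ± 0.25, and *Acp76A* was dimmest (2.71 ± 1.79).

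Egg and germline genes were highest on Canton-S arrays 3 and 5, where the median of the 19 genes was 6.57 and 6.34, against 3.82 to 4.44 on the other 6. *osk* (9.31 ± 0.97) read 10.84 and 10.40 there, and the eggshell gene *Cp15* (6.25 ± 1.63) read 8.76 and 8.52. *grk*, an oocyte signal, averaged 9.07 ± 0.40, and the germ cell helicase *vas* was at background (1.99 ± 0.30). Of 17 testis genes, the sperm genes *Mst84Dc* (7.87 ± 1.89), *Mst84Db* (6.42 ± 1.61) and *Mst84Da* (6.25 ± 1.85) were highest and *comr* was lowest (1.64 ± 0.30). *Mst84Dc* read 4.97 and 5.04 on Canton-S arrays 4 and 5 and 7.20 to 9.27 on the other 6.

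Genes tied to sex gave no single picture. The yolk protein genes were bright on all 8 arrays. All 4 measured genes of the Y chromosome, *kl-2*, *Pp1-Y2*, *Ppr-Y* and *ORY*, lay at background, with means of 1.47 to 1.99. They are known from the male germline, so their level in hearts does not tell the sex of the pools. The genes *lncRNA:roX1* and *lncRNA:roX2* of the same list are not named here. *Sxl*, the switch gene of female development, was at 9.85 ± 0.72 and its target *msl-2* at 6.19 ± 1.32, while *fru* was the dimmest of the 9 genes of the sex list (4.41 ± 0.28).

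**Figure D5:**
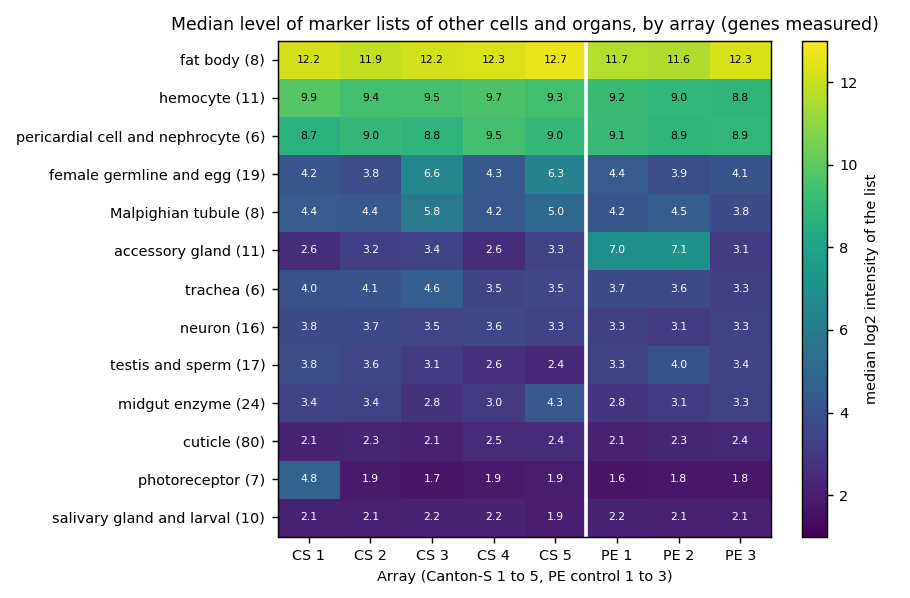
Median log2 intensity of each marker list (rows, number of genes measured in brackets) on each control array (columns, Canton-S 1 to 5 and PE control 1 to 3), by color from 1 to 13. Fat body, hemocyte and nephrocyte lists are high on every array, and single high cells mark photoreceptor genes on Canton-S array 1 (4.81), accessory gland genes on PE control arrays 1 and 2 (6.97 and 7.12) and egg genes on Canton-S arrays 3 and 5.

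The spread between arrays depended on level. The median SD over the 8 arrays was 0.31 log2 for bright, 0.52 for intermediate and 0.33 for background genes. By steps of level it rose from 0.30 between 1 and 2 log2 to 0.70 between 4 and 5, then fell to 0.10 above 13, so errors were largest for genes moderately above background. The steadiest bright genes were *roh* (12.03 ± 0.04), *sesB*, *RpL15*, *Fer2LCH* and *eIF4A*, with SDs from 0.04 to 0.06. *roh* read 11.98 to 12.03 in Canton-S and 12.05 to 12.11 in the PE control.

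The least steady bright gene was the noncoding *lncRNA:CR42862* at 10.31 ± 2.47. It read 11.93, 11.80, 11.75, 12.46 and 12.32 in Canton-S and 8.49, 7.23 and 6.52 in the PE control. Its mean of 8 lay in the gap between the strains, which was 3.26 log2 wide. *CG14715* ran the other way, with 7.99 to 9.55 in Canton-S and 12.03 to 12.10 in the PE control. The strain ranges of *CHKov1*, *CG16898*, *MtnB*, *CG9512* and *GstT4* did not overlap either, and those of *Paics*, *CG32444* and *Mtk* did. SDs in this group ran from 1.03 for *GstT4* to 1.79 for *CG14715*.

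*Paics*, an enzyme of purine synthesis, read 7.66 and 8.32 on Canton-S arrays 4 and 5 and 10.20 to 10.90 on the other 6. Of all 11982 genes, the strain ranges of 1555 (13.0%) did not overlap, and of the 738 bright genes, those of 200 (27.1%). For these genes the mean over 8 arrays is a mixture of strains with 5 and 3 arrays. Genes with several probesets add another uncertainty. There were 1094 of them, the brightest and dimmest probeset differed by a median of 1.603 log2, and in 470 (43.0%) the dimmest fell in another band. Among the 78 of them that were bright, 17 had their dimmest probeset at background.

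Bright genes were found on all major chromosome arms. Their share was 7.66% of 2205 genes on 2L, 6.92% of 2427 on 2R, 4.56% of 2344 on 3L, 5.95% of 2974 on 3R, 5.87% of 1873 on X and 5 of 65 genes on chromosome 4. The background share was lowest on chromosome 4, with 13 of 65 genes, and the median gene there stood at 6.29 log2, against 4.75 to 5.31 on the other arms. Of 77 long noncoding RNA genes, 2 were bright and 42 at background, whereas 734 of 11790 protein-coding genes were bright and 3141 at background.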

How the data were processed

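Gene expression was measured with Affymetrix Drosophila Genome 2.0 arrays in pools of 30 hearts. The authors checked array quality with affyQCReport and normalized the arrays with RMA in AltAnalyze, whose versions are not given in the sources used here. The deposited values are normalized intensity values on a linear scale, 1 per probeset and array, and their log2 was taken here. RMA normalizes all arrays to a common distribution of intensities, so a shift of total RNA between arrays would not be seen, and linear sums depend on that scale. Of 18952 probesets, 183 platform controls were left out. Of the remaining 18769, 13647 have 1 gene symbol, 402 several and 4720 none in the platform annotation. Of the 13647, 13544 were matched to the Release 6 plus ISO1 MT gene table, which gave current symbols and chromosomes, and they represent 11982 genes. Genes carried by probesets with several symbols or none are called not named here.

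Arrays were grouped by their labels. Levels, SDs and bands were computed with Python 3.11.15 (pandas 2.3.3, numpy 2.4.6), and figures with matplotlib 3.10.9. The difference between each level and the background threshold was tested with limma 3.58.1 in R 4.3.3 (1 mean over the 8 arrays, empirical Bayes, 2-sided, Benjamini-Hochberg adjustment over 18769 probesets or over 11982 genes, adjusted p under 0.05). No contrast between strains was fitted. Both scripts were tested on simulated data. The number of arrays limits the precision. Named genes were the 25 brightest, the most and least variable bright genes, those nearest the thresholds, all members of the contractile filament, matrix, transcription factor, channel and calcium lists that the text details, and the 3 highest and the lowest member of other lists. Genes named beside these were chosen after their values were seen. The 42 gene lists were written by hand, and members and lists were chosen with earlier results of these data known. Alternatives covered the thresholds, the summary over arrays, the normalization, the choice of probeset and arrays left out.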

Additional observations from a re-analysis of the deposited data

Results flagged for a closer look

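Among the 5 Canton-S arrays, a single array stood far from the other 4 (a gap over 0.71 of the whole range) for 33 of 270 named genes (12.2%). Chance gives about 1 in 20, the share was 7.98% over all 11982 genes, and among bright genes it was 97 of 738 (13.1%). The 3 PE control arrays are too few for this comparison. No explanation was tested.

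Canton-S array 3 was the one apart for 21 of these genes. It was the lowest for 9 ribosomal genes, *RpL41* (13.03 log2), *RpS18* (12.88), *RpL40* (12.80), *RpS28b* (12.69), *RpS29* (12.51), *RpS26* (12.67), *RpL37-1* (12.63), *RpS27A* (12.46) and *RpL28* (12.35). It was also lowest for the lipid genes *Lsd-2* (12.15) and *Acsl* (9.77), the calcium channel *Orai* (8.74), *Ogdh* (11.02), the scavenger receptor *crq* (9.47) and *Herp* (9.25). It was highest for *Fer1HCH* (13.04), *up* (10.57), *SPARC* (11.69), *Mdh1* (12.41), *Inx7* (3.06) and *serp* (6.64).

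Canton-S array 1 was highest for *Arr2* (8.69), *Arr1* (7.10) and *trpl* (3.15), all genes of the eye's light response, and lowest for *Pp2B-14D* (6.71). Canton-S array 4 was highest for *H15* (7.02) and *Eig71Ee* (3.29) and lowest for *Tpi* (10.67). Canton-S array 5 was highest for *Elk* (3.10) and *ple* (1.67) and lowest for *sand* (3.94), *eag* (3.20) and the odorant receptor *Or1a* (3.05).

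Probesets outside the levels above also gave signal. Of 100 fly-specific platform control probesets, 5 exceeded the background threshold, at 13.92, 5.94, 4.63, 3.01 and 2.89 log2. Of 5122 probesets without a single gene symbol, 185 had a bright level, the highest at 13.48, and 3076 were at background.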

How the results depend on the processing

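The band counts follow the thresholds. A bright threshold of 9 or 11 log2 gave 1493 or 299 bright genes in place of 738. A background threshold at the 75th percentile of the receptor probesets gave 1484 background genes in place of 3248, and limma then placed 13289 probesets above it in place of 10265. With only those probesets whose identifier marks no cross-matching, 10075 genes remained and 474 were bright, because 270 of the 738 bright genes (36.6%) have another kind of probeset as their brightest. Leaving out single arrays gave 727 to 745 bright genes, 3202 to 3366 background genes and 10053 to 10229 probesets above the threshold. Canton-S arrays alone gave 738 bright and 3216 background genes, the PE control arrays alone 784 and 3590. The other summaries, normalizations and array subsets kept both counts within 1.5 times. A planned threshold from reporter controls was not run, since no probeset carries that class of identifier. Fly-specific platform controls were used instead (chosen after seeing the data), with 3140 background genes, and without Canton-S arrays 4 and 5 together (also chosen after seeing the data) there were 765 bright and 3363 background genes. For the 270 named genes, 76 of 5053 alternative levels, in 59 genes, moved by more than 1 SD, and 127 of 1764 counts per list moved by over 1.5 times. No paired analysis was possible because levels over 8 arrays are not a contrast between groups. Signal near background limits the order of dim genes.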

Other observations

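Gene families grouped by symbol, chosen after values were seen, add to the account of the control heart. The immune-induced Bomanin peptides were high, with 5 of 8 genes bright, 3 intermediate and a median of 10.78 log2 (highest *BomT3*, 11.95). Of 7 peptidoglycan recognition proteins, the sensors of bacteria, 1 was bright and the median was 8.68. Of 5 Turandot genes, which are induced by stress, *TotC* was bright at 11.04 and 3 were at background. Of 34 glutathione S-transferases 5 were bright, and of 81 cytochrome P450 genes 9 were bright, 60 intermediate and 12 at background. The proton pump of lysosomes and epithelia, the vacuolar ATPase, split into 10 bright, 10 intermediate and 11 background genes of 31, with *VhaM9.7-b* highest (12.18).

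All 29 aminoacyl-tRNA synthetase genes, which charge transfer RNA, were intermediate, from 4.21 to 8.56 log2. Of 53 ionotropic receptors, which act in chemosensory neurons, 50 were at background, as were 17 of 35 UDP-glycosyltransferases. Genes known only by a number made up 180 of the bright (24.4%), 3158 of the intermediate (39.5%) and 1881 of the background genes (57.9%). Several stood among the brightest genes outside the ribosome: *CG2765* (12.60 ± 0.26), *CG4716* (12.57 ± 0.24), *CG5953* (12.57 ± 0.33) and *CG2233* (12.56 ± 0.14). In the same range were the lysosomal genes *CtsL1* (12.64 ± 0.21) and *Lamp1* (12.54 ± 0.24).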
